A study of Mus musculus with 9 samples.

Results

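The genes described here encode the machinery of intraflagellar transport. They were taken from a list of 37 genes, chosen with earlier results of these data known. It holds 6 genes of the IFT-A complex, 15 of the IFT-B complex, 12 of the BBSome group and 4 of cytoplasmic dynein-2. The BBSome group includes its GTPase, its regulator and its chaperonin-like assembly factors. All 37 were found among the 32035 genes to which the transcripts of the libraries could be assigned. They were measured by RNAseq of whole testis in 3 WT, 3 Kpna6 ΔIBB/ΔIBB and 3 Kpna6-/- male mice, all 15 weeks old and on a C57Bl6/N background. Kpna6, also called importin α7, is a karyopherin α that carries proteins into the nucleus. In the ΔIBB allele a resistance cassette replaces an early exon, and the shortened mRNA that remains encodes a protein without its importin β binding domain. In Kpna6-/- mice a gene trap lies in the first intron, but the study describes a testis-specific first exon from which germ cells still make full-length Kpna6, while Sertoli cells do not. The study states that other organs of -/- males lack Kpna6 protein, so the loss is not confined to Sertoli cells. One library, ΔIBB replicate 3, stood apart by its epididymis markers, and counts without it are given with those markers. In each library, between 24859751 and 31484692 estimated counts fell on genes. All 37 genes passed the filter on low counts in each comparison.

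Cilia and flagella are built at their tips, where no protein is made, so tubulin and other building blocks are carried in along the axoneme. Trains of IFT-A and IFT-B are carried outward by kinesin-2 motors and back by dynein-2, and the BBSome is an adaptor that links membrane proteins to these trains. In the testis, intraflagellar transport is known for its part in building the sperm tail, and loss of several of its subunits makes male mice sterile. Many ciliary genes carry an X-box in their promoter, the motif bound by RFX factors.

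The X-box was searched for as the letters GTTNCC and GGNAAC with any pair of bases between them, a sequence that reads the same on both strands. The window ran from 250 bases before to 50 bases after the start of each gene in the RefSeq promoter set (GRCm38.p6), in which 32 of the 37 genes have an entry. A full match was present in Bbs7 and Ttc26, 2 of the 32 genes, and in 143 of all 27025 genes (0.529%). With 1 mismatch allowed, 6 of 32 genes (Ift22, Ttc26, Ift57, Bbs1, Bbs4 and Bbs7) and 2.89% of all genes had one. The shorter letters GTTGCC, on either strand and counted also inside a full X-box, were present in 13 of 32 genes and in 14.1% of all genes. The 3 windows shown were picked because their genes were lower in Kpna6 ΔIBB/ΔIBB testes (described further on). Ift22, Bbs1 and Bbs4 also matched with 1 mismatch, but were not called and are not shown. Of the genes called lower, Bbs5, Ift81, Cluap1 and Ift74 fell most. Bbs5, Cluap1 and Ift74 had no match even with 1 mismatch, and Ift81 has no promoter entry. Each has 30 bases, 5′ to 3′ on the strand of the gene, with the 14 bases of the motif in capitals. The Ift57 window has 1 mismatch to the X-box.
Bbs7: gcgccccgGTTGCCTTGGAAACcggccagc
Ttc26: ccggcggcGTTGCCGTGGAAACggagctcg
Ift57: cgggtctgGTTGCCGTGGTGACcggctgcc
The Bbs7 window is chr3:36613489-36613518 on the minus strand, and its motif begins 121 bases before the RefSeq start. The Ttc26 window is chr6:38381483-38381512 on the plus strand, and its motif begins 33 bases before the RefSeq start but 22 bases inside the gene as annotated in GENCODE M21. The Ift57 window is chr16:49699199-49699228 on the plus strand, and its motif begins 87 bases before the RefSeq start. Of the 13 genes with GTTGCC, 7 were called lower in Kpna6 ΔIBB/ΔIBB testes. Of the 6 genes with at most 1 mismatch to the X-box, 3 were. Of all 32 with a promoter entry, 11 were, and of all genes tested 18.9% were. The share lower among all genes with a motif was not determined. These are matches of letters only, and binding was not measured here.

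Kpna6 itself was measured at 202, 325 and 332 CPM (counts scaled to a common library total, here adjusted by TMM over the 9 libraries) in WT testes. It was at 81.1, 85.5 and 81.9 CPM in Kpna6 ΔIBB/ΔIBB testes and at 247, 249 and 261 CPM in Kpna6-/- testes. The ΔIBB libraries were far below the others, with a log2 fold change of -1.79 (SE 0.15, adjusted P = 1.94e-05 by the quasi-likelihood test of edgeR). The Kpna6-/- libraries lay within the range of the WT libraries, at -0.18 (SE 0.14, adjusted P = 0.586), and WT replicate 1 was the lowest of the 6. Without that library the difference was -0.38 with an adjusted P of 0.000345. Kpna6 counts thus separate the ΔIBB group from the rest but do not check the Kpna6-/- label.

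In WT testis the 37 genes spanned a wide range of levels. Levels are compared between genes only in TPM, the deposited abundance, which is scaled by transcript length and library total. The median over members was 85.5 TPM in IFT-A, 61.5 in IFT-B, 38.4 in dynein-2 and 21.4 in the BBSome group. The highest gene was Ift172, a large peripheral IFT-B subunit, at 370, 379 and 362 TPM in the 3 WT libraries. Next came Ift43, a small IFT-A subunit, at 174, 187 and 185 TPM, and Ift74, which pairs with Ift81 to bind tubulin, at 135, 139 and 142 TPM. Ift172 stood above and Ift74 below Ift43 without overlap, while Ift74 overlapped its neighbour Ift140 (138 ± 6.89 TPM, SD, n = 3). The lowest genes were at a few TPM. Bbs12, a chaperonin-like factor for BBSome assembly, was at 2.89, 3.46 and 3.28 TPM in WT. Ttc30b, an IFT-B subunit, was at 5.01, 4.10 and 4.41 TPM, and Mkks, another chaperonin-like factor, at 6.63, 6.77 and 7.04 TPM. Of the 36 pairs of neighbours in the order of WT levels, 15 did not overlap between libraries, mostly among the lower genes.

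**Figure D1:**
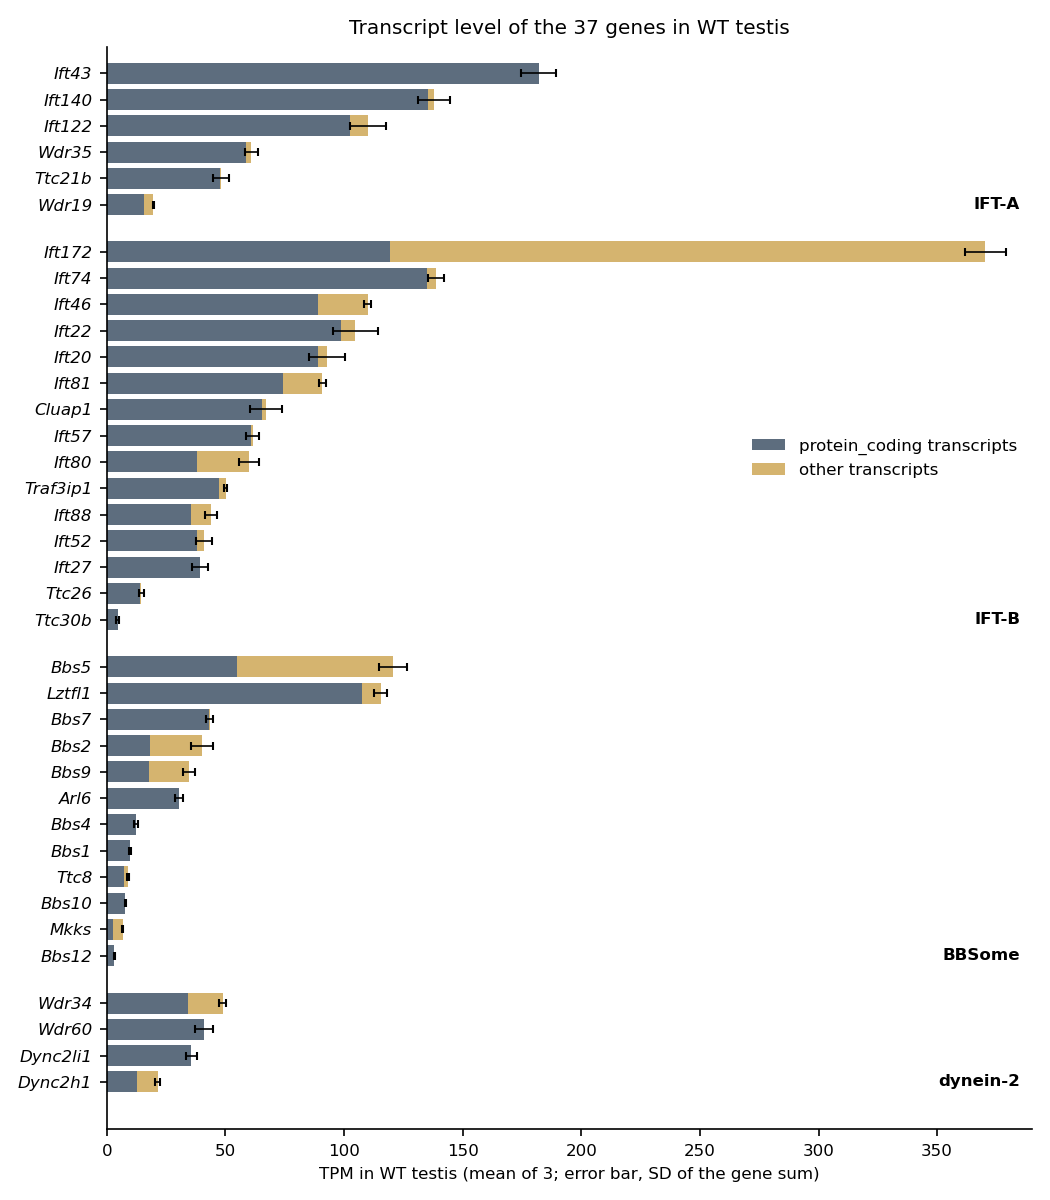
Bars give the mean TPM (x axis) of each of the 37 genes in 3 WT testes, split into protein_coding and other annotated transcripts, with the SD of the gene sum as error bar. Ift172 has the longest bar at 370 TPM, of which 119 TPM came from protein_coding transcripts, and Bbs12 the shortest at 3.21 TPM.

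The order rests partly on transcripts that are not annotated as coding. A retained-intron transcript of 742 bases took 58.0 ± 3.5% (SD, n = 3) of the Ift172 TPM in WT. Over protein_coding transcripts alone Ift172 was at 119 ± 12.1 TPM, after Ift43, Ift140 and Ift74. Retained-intron transcripts also led in Ift80 (32.6% of its TPM) and Bbs9 (31.8%), and a processed transcript led in Mkks (61.1%). Over protein_coding transcripts, Mkks was the lowest of the 37 at 2.65 TPM. Transcripts without a protein_coding label made up 54.4% of the TPM of Bbs5 and 54.5% of that of Bbs2. Ttc30b is 1 of a set of like genes, and its relatives were higher in WT, with mean levels of 86.3 TPM for Ttc30a2 and 12.2 TPM for Ttc30a1.

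In Kpna6 ΔIBB/ΔIBB testes, 12 of the 37 genes were lower than in WT and 0 were higher at an adjusted P below 0.05 (32.4% lower). Among all 18797 genes tested, 18.9% were lower and 36.6% were called in either direction. All 12 changed by less than 2-fold, the most being Bbs5, which fell by 0.52 on the log2 scale. The median log2 fold change of the 37 genes was -0.11 and that of all genes tested 0.01. The CPM values of the 3 mutant libraries lay below those of all 3 WT libraries for 19 genes and above them for 3 genes (Ift20, Mkks and Wdr34), against 25.0% of all genes below and 25.0% above.

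These counts depend on how the libraries were scaled. TMM places the median of all genes near 0. With scaling to the total count alone, the median of all genes moved to 0.11 and that of the 37 genes to -0.01. Then 6 of the 37 were called lower (Bbs5, Cluap1, Dync2h1, Ift172, Ift74 and Ift81) and 5 higher (Ift20, Ift22, Ift27, Mkks and Wdr34), against 12.4% of all genes lower and 28.8% higher. With limma on log2(TPM + 1), 5 were called lower (the same list without Dync2h1) and 2 higher (Ift20 and Mkks), against 8.23% and 20.2% of all genes. Relative to the median of all genes, the 37 genes stood at -0.12, -0.12 and -0.09 under the 3 scalings, and 29 of them lay below that median each time. Going from TMM to library size shifts all genes by nearly the same amount, so only the position with TPM could have differed. In what follows, lower and higher refer to TMM scaling unless stated.

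**Figure D2:**
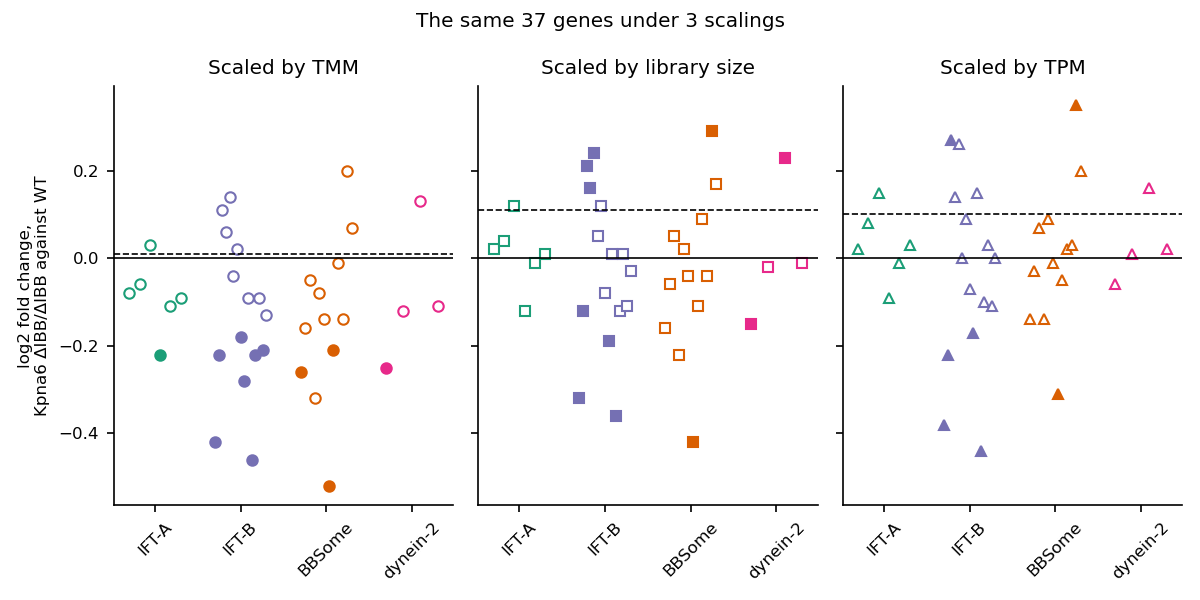
Each point is the log2 fold change (y axis) of 1 of the 37 genes in Kpna6 ΔIBB/ΔIBB against WT testes, by complex, in 3 panels for scaling by TMM, by library size and by TPM, filled where the adjusted P is below 0.05, with the median of all genes as a dashed line. The dashed line moves from 0.01 to 0.11 and 0.10. With TPM single genes also shift against it, such as Ift80 from -0.09 to 0.15, and filled points above 0 appear with library size (5) and TPM (2).

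**Figure D3:**
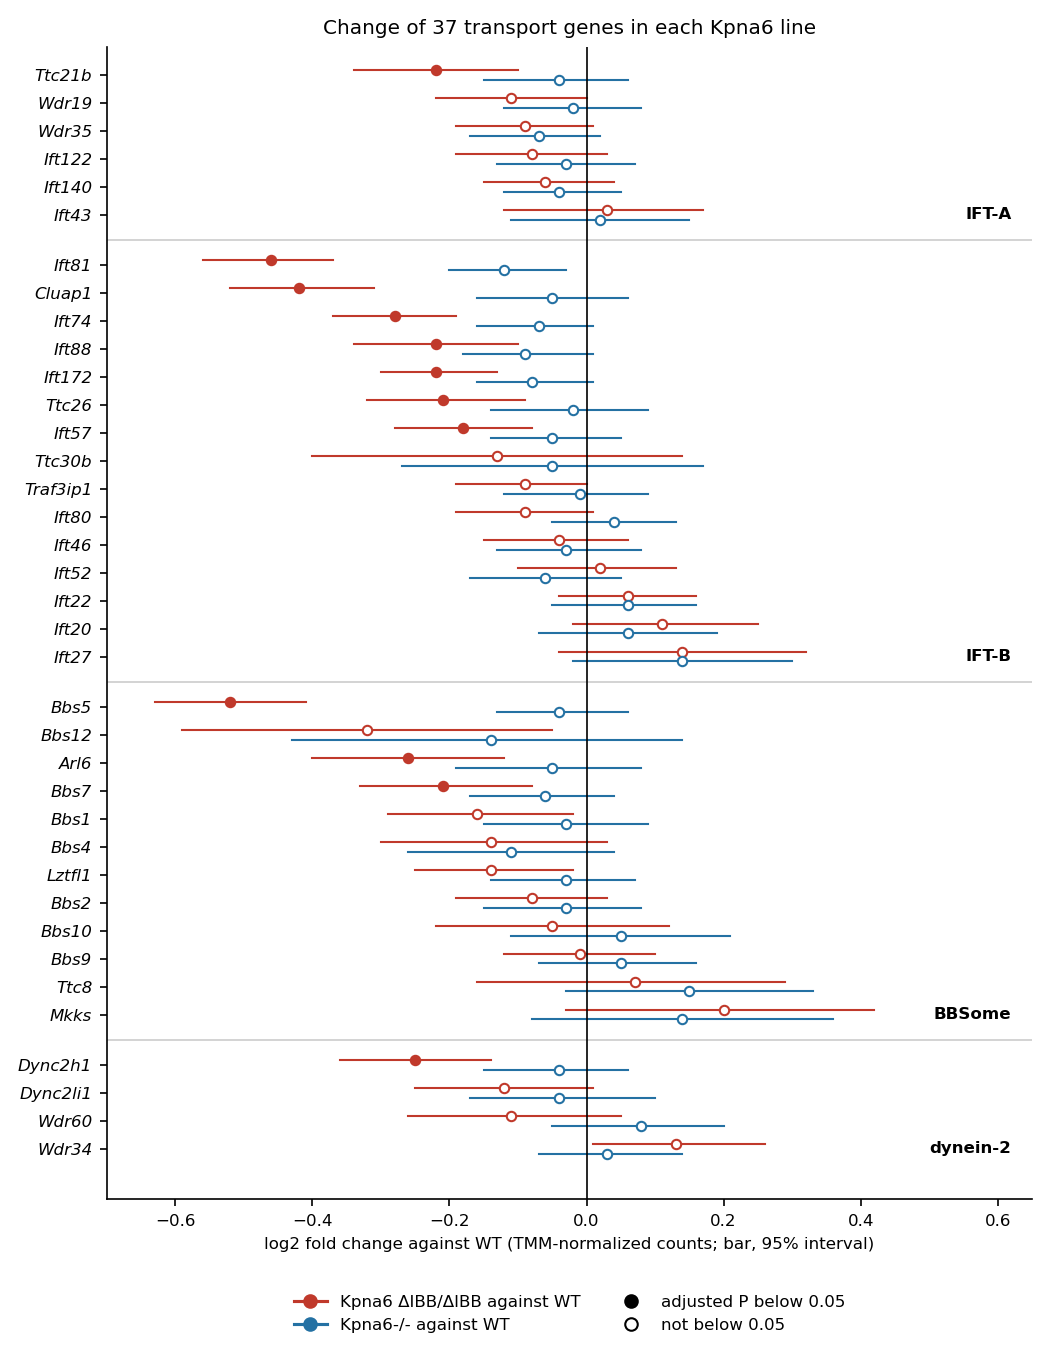
Points give the log2 fold change against WT (x axis, TMM scaling) of each gene, for Kpna6 ΔIBB/ΔIBB and for Kpna6-/-, with 95% intervals, filled where the adjusted P is below 0.05. The 12 filled points belong to Kpna6 ΔIBB/ΔIBB and lie below 0, and no Kpna6-/- point is filled.

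In IFT-A, 1 of 6 genes was lower (16.7%, below the 18.9% of all genes). Ttc21b, a peripheral subunit that acts in return transport (chromosome 2, 66184327 to 66256617 in GRCm38), was at 156, 178 and 172 CPM in WT. It was at 138, 147 and 148 CPM in Kpna6 ΔIBB/ΔIBB and at 164, 163 and 164 CPM in Kpna6-/- testes. All ΔIBB libraries were below all others, and the log2 fold change against WT was -0.22 (95% interval -0.34 to -0.10, adjusted P = 0.00807 by edgeR). The core subunits Wdr19, Ift122 and Ift140 had log2 fold changes of -0.11, -0.08 and -0.06, and the peripheral subunits Wdr35 and Ift43 of -0.09 and 0.03, and none of these 5 passed the test. The median over IFT-A was -0.09 under TMM but 0.01 with library size and 0.02 with TPM. Under the last 2 scalings no IFT-A gene was called.

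IFT-B had the most calls, 7 of 15 lower (46.7%, against 18.9% of all genes), in 4 of 9 core and 3 of 6 peripheral subunits. Ift81 and Ift74 form the tubulin-binding pair of the core. Ift81 (chromosome 5, 122550204 to 122614518) was at 145, 144 and 150.0 CPM in WT, at 102, 109 and 107 CPM in Kpna6 ΔIBB/ΔIBB and at 133, 134 and 138 CPM in Kpna6-/- testes. The 3 groups did not overlap, with Kpna6-/- between the others. Against WT, Ift81 fell by 0.46 on the log2 scale in Kpna6 ΔIBB/ΔIBB (95% interval -0.56 to -0.37, adjusted P = 3.13e-05), and its level fell by 27.4%. Ift74 (chromosome 4, 94614491 to 94693229) was at 208, 215 and 211 CPM in WT, at 166, 175 and 179 CPM in Kpna6 ΔIBB/ΔIBB and at 195, 203 and 204 CPM in Kpna6-/- testes. Its groups were ordered in the same way without overlap, and the log2 fold change of ΔIBB against WT was -0.28 (95% interval -0.37 to -0.19, adjusted P = 0.000367). Both kept an adjusted P below 0.05 under all 3 scalings. With library size and TPM, Ift81 was at -0.36 and -0.44, and Ift74 at -0.19 and -0.17.

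Ift88, a core subunit needed for cilium assembly (chromosome 14, 57424062 to 57517936), was at 92.6, 96.3 and 94.0 CPM in WT, at 75.1, 80.9 and 86.2 CPM in Kpna6 ΔIBB/ΔIBB and at 85.8, 88.6 and 92.0 CPM in Kpna6-/- testes. The WT libraries were above all others, and the ΔIBB and -/- libraries overlapped. The log2 fold change of ΔIBB against WT was -0.22 (95% interval -0.34 to -0.10, adjusted P = 0.00874). Ttc26, a core subunit given here because of the X-box shown above (chromosome 6, 38381469 to 38427647), was at 44.4, 46.5 and 47.8 CPM in WT, at 39.0, 40.2 and 40.6 CPM in Kpna6 ΔIBB/ΔIBB and at 44.4, 46.5 and 45.6 CPM in Kpna6-/- testes. Only its ΔIBB libraries stood apart, with a log2 fold change of -0.21 (95% interval -0.32 to -0.09, adjusted P = 0.0103). With library size or TPM, the adjusted P of neither Ift88 nor Ttc26 was below 0.05.

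Among the peripheral IFT-B subunits, Cluap1, also known as Ift38 (chromosome 16, 3908801 to 3941147), changed most. It was at 69.0, 68.0 and 73.3 CPM in WT, at 52.2, 52.3 and 52.7 CPM in Kpna6 ΔIBB/ΔIBB and at 64.0, 69.7 and 69.5 CPM in Kpna6-/- testes. The 3 ΔIBB libraries lay close together and below the other 6, and Cluap1 fell by 0.42 on the log2 scale against WT (95% interval -0.52 to -0.31, adjusted P = 0.000105). Cluap1 shares 512 bases with the annotated gene Gm20695. With the counts of both summed, the fold change was -0.41 (adjusted P = 9.03e-05).

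Ift172 (chromosome 5, 31253277 to 31291116) was at 544, 589 and 581 CPM in WT, at 479, 506 and 488 CPM in Kpna6 ΔIBB/ΔIBB and at 553, 524 and 546 CPM in Kpna6-/- testes. The ΔIBB libraries were below the other 6, at a log2 fold change of -0.22 against WT (95% interval -0.30 to -0.13, adjusted P = 0.00195). In TPM, Ift172 was at 317, 330 and 308 in the ΔIBB libraries and at 348, 347 and 365 in the -/- libraries. The fall in TPM against WT lay mainly in its retained-intron transcript of 742 bases, at 215 ± 15.9 TPM in WT and 175 ± 9.88 in ΔIBB (SD, n = 3). Its main coding transcript changed little in TPM, at 111 ± 8.16 in WT and 107 ± 3.14 in ΔIBB. With counts of protein_coding transcripts alone and TMM, Ift172 was still lower than in WT, at -0.18 (adjusted P = 0.0124 by edgeR). Ift57, whose promoter window is shown above (chromosome 16, 49699233 to 49765126), was at 81.2, 81.4 and 78.6 CPM in WT, at 68.8, 71.0 and 72.4 CPM in Kpna6 ΔIBB/ΔIBB and at 77.9, 78.8 and 76.9 CPM in Kpna6-/- testes. Its ΔIBB libraries were also below the other 6, at -0.18 against WT (95% interval -0.28 to -0.08, adjusted P = 0.00871), and its call was not kept with library size or TPM.

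The other 8 IFT-B genes were not called under TMM. They ran from -0.13 for Ttc30b, through -0.09 for Traf3ip1 and Ift80, -0.04 for Ift46, 0.02 for Ift52 and 0.06 for Ift22, to 0.11 for Ift20, the subunit that also resides at the Golgi, and 0.14 for Ift27, a small GTPase. The ΔIBB libraries of Ift20 were all above the WT libraries, and with library size Ift20, Ift22 and Ift27 were called higher. The median over IFT-B was -0.13 under TMM and -0.03 with library size, while with TPM it was within 0.01 of 0.

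**Figure D4:**
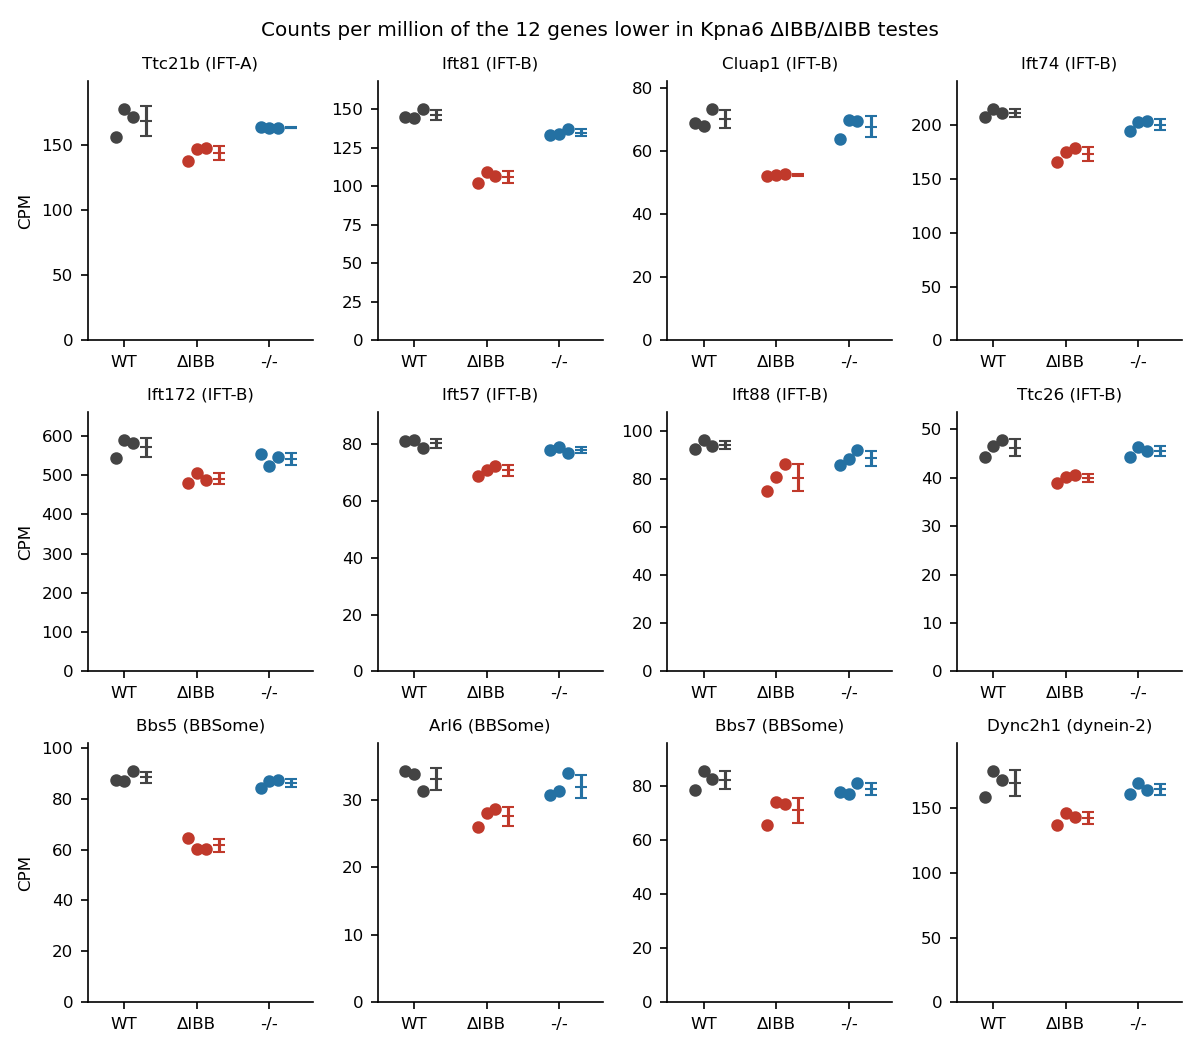
Each panel plots the CPM (y axis, from 0) of 1 of the 12 genes called lower in Kpna6 ΔIBB/ΔIBB against WT, as 1 point per library for WT, Kpna6 ΔIBB/ΔIBB and Kpna6-/- testes, with the mean and SD of 3 beside the points. The ΔIBB points lie below all WT points in each panel, and below all -/- points in each panel but that of Ift88.

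In the BBSome group, 3 of 12 genes were lower (25.0%, against 18.9% of all genes). They were 2 of the 7 subunits and the GTPase that recruits the complex to membranes. Bbs5, a subunit that binds phosphoinositides (chromosome 2, 69647171 to 69667571), was at 87.4, 86.8 and 90.7 CPM in WT, at 64.6, 60.1 and 60.1 CPM in Kpna6 ΔIBB/ΔIBB and at 84.3, 86.8 and 87.3 CPM in Kpna6-/- testes. The WT and -/- libraries overlapped and the ΔIBB libraries lay well below them. The log2 fold change against WT was -0.52 (95% interval -0.63 to -0.41, adjusted P = 3.37e-05), a fall of 30.1% under TMM. It was smaller under the other scalings, at -0.42 with library size and -0.31 with TPM. Arl6, the GTPase (chromosome 16, 59612949 to 59639391), was at 34.2, 33.8 and 31.3 CPM in WT, at 26.0, 28.1 and 28.6 CPM in Kpna6 ΔIBB/ΔIBB and at 30.7, 31.3 and 34.0 CPM in Kpna6-/- testes, and fell by 0.26 on the log2 scale (95% interval -0.40 to -0.12, adjusted P = 0.00748).

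Bbs7, a scaffold subunit with a full X-box (chromosome 3, 36573142 to 36613477), was at 78.7, 85.5 and 82.5 CPM in WT, at 65.5, 74.1 and 73.3 CPM in Kpna6 ΔIBB/ΔIBB and at 77.9, 77.1 and 81.3 CPM in Kpna6-/- testes. ΔIBB replicate 1 was the lowest, and the log2 fold change against WT was -0.21 (95% interval -0.33 to -0.08, adjusted P = 0.0160). Bbs7 was the only one of the 12 to lose its call when a library was left out, with an adjusted P of 0.0665 without ΔIBB replicate 1 and of 0.0608 without WT replicate 2. With library size or TPM, neither Bbs7 nor Arl6 passed the test, whereas Bbs5 did.

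The other subunits Bbs1, Bbs4, Bbs2, Bbs9 and Ttc8 had log2 fold changes of -0.16, -0.14, -0.08, -0.01 and 0.07 and were not called. Lztfl1, which regulates BBSome traffic, was at -0.14 (adjusted P = 0.0622). None of the 3 chaperonin-like factors was called. Bbs12 was at 3.02, 2.80 and 2.58 TPM and Bbs10 at 8.26, 8.47 and 7.70 TPM in the ΔIBB libraries, with log2 fold changes on CPM of -0.32 and -0.05. Mkks was at 9.11, 9.04 and 8.73 TPM, above the WT libraries, with a log2 fold change on CPM of 0.20 (adjusted P = 0.154), and it was called higher with library size and with TPM. Mkks overlaps Slx4ip on the opposite strand over 172 bases and Bbs4 overlaps Adpgk over 183 bases, and the library kit does not mark the strand, so reads from these stretches cannot be told apart. The median over the BBSome group was -0.14 under TMM and -0.04 with library size, and within 0.01 of 0 with TPM.

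In dynein-2, the heavy chain was lower, 1 of 4 genes (25.0%, against 18.9% of all genes), and the other 3 genes were not called. Dync2h1 (chromosome 9, 6928503 to 7184446) was at 159, 178 and 171 CPM in WT, at 137, 146 and 143 CPM in Kpna6 ΔIBB/ΔIBB and at 160.5, 169 and 164 CPM in Kpna6-/- testes. The ΔIBB libraries were below the other 6, at -0.25 against WT (95% interval -0.36 to -0.14, adjusted P = 0.00282). With TPM its log2 fold change was -0.06 and was not called. The light intermediate chain Dync2li1 and the intermediate chains Wdr60 and Wdr34 had log2 fold changes of -0.12, -0.11 and 0.13. Wdr34 was above WT in all 3 ΔIBB libraries and was called higher with library size. The median over dynein-2 was -0.11 under TMM, -0.01 with library size and 0.01 with TPM.

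In Kpna6-/- testes none of the 37 genes was called by the quasi-likelihood test of edgeR. Log2 fold changes ran from -0.14 (Bbs12) to 0.15 (Ttc8), and the 95% intervals of the 37 genes all lay between -0.43 and 0.36. Of all 18681 genes tested, 1.60% were called. At an unadjusted P below 0.05 there was 1 gene, Ift81 at -0.12 (95% interval -0.20 to -0.03, adjusted P = 0.188), against 14.9% of all genes. DESeq2 and each other alternative also called 0. Without overlap, 4 genes were below WT (Ift74, Ift81, Ift88 and Bbs4) and 2 above it (Ift27 and Ttc8), against 9.84% and 10.1% of all genes. The medians were -0.04 for IFT-A, -0.05 for IFT-B and -0.03 for the BBSome group, and that of dynein-2 was within 0.01 of 0. Ift43 was at 187, 168 and 195 TPM in the -/- and at 182, 210 and 213 TPM in the ΔIBB libraries. Ift74 was at 128, 132 and 133 TPM in the former and at 119, 126 and 125 TPM in the latter. For the lowest genes, the -/- values were 2.88, 2.57 and 3.26 TPM for Bbs12, 4.17, 4.53 and 4.26 TPM for Ttc30b and 7.57, 6.51 and 7.63 TPM for Mkks. The ΔIBB values of Ttc30b were 4.82, 4.89 and 3.81 TPM.

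When the mutants were compared directly, 13 of the 37 genes were lower in ΔIBB than in -/- testes and 0 higher, against 16.8% of 18752 genes lower and 30.3% called in either direction. They were Ttc21b of IFT-A, Cluap1, Ift81, Ift74, Ift172, Ift57, Ift80 and Ttc26 of IFT-B, Bbs5, Arl6 and Bbs7 of the BBSome group, and Dync2h1 and Wdr60 of dynein-2. The largest differences were -0.49 for Bbs5 (95% interval -0.59 to -0.40, adjusted P = 1.04e-05), -0.38 for Cluap1 (-0.48 to -0.27, adjusted P = 0.000118) and -0.35 for Ift81 (-0.44 to -0.27, adjusted P = 5.29e-05). Ift88 was at -0.14 and did not pass the test (adjusted P = 0.0692). Leaving out 1 library ended the call of Bbs7 (without ΔIBB replicate 1 or any 1 of the -/- libraries, adjusted P up to 0.162), Ift57 (without ΔIBB replicate 1 or 2 or -/- replicate 1 or 2, up to 0.0738), Ift80 (without ΔIBB replicate 2 or -/- replicate 2 or 3, up to 0.0816) and Arl6 (without ΔIBB replicate 1 or -/- replicate 3, up to 0.0798). Both comparisons use the same ΔIBB libraries, so their lists are not independent. With library size, 5 genes were lower (Bbs5, Cluap1, Dync2h1, Ift74 and Ift81) and 3 higher (Ift20, Ift52 and Wdr34), against 10.8% and 26.3% of all genes. With TPM, 4 were lower (Bbs5, Cluap1, Ift172 and Ift81) and 2 higher (Ift20 and Mkks), against 6.75% and 19.1%.

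The share of each gene's TPM held by its leading WT transcript was compared between groups for the 29 genes with more than 1 transcript. Bbs5-201, the coding transcript of Bbs5, held 44.3, 45.3 and 46.7% in WT and 40.5, 42.6 and 41.5% in Kpna6 ΔIBB/ΔIBB libraries. The retained-intron transcript Bbs9-202 held 29.3, 34.3 and 31.8% in WT and 25.8, 19.7 and 25.4% in Kpna6 ΔIBB/ΔIBB libraries. Along with the coding transcripts Dync2h1-201 (45.2 ± 3.3% in WT and 39.5 ± 1.0% in ΔIBB, SD, n = 3) and Wdr34-201 (70.5 ± 3.2% and 75.9 ± 2.8%), these were the 4 of 29 whose groups did not overlap, against 17.5% of all 12769 tested genes with more than 1 transcript. For Kpna6-/- against WT there were 0, against 10.9%, and for ΔIBB against -/- there were 4, against 15.3%. With 3 libraries per group, the lowest P-value open to an exact two-sided permutation test is 0.1, and the smallest adjusted P over the genes was 0.669. Both main transcripts of Bbs5 had lower mean levels, with Bbs5-201 at 54.9 ± 4.17 TPM in WT and 40.3 ± 0.873 in ΔIBB, and its nonsense-mediated decay transcript at 40.7 ± 3.32 and 31.9 ± 3.53 TPM. Over protein_coding transcripts alone, 12 of the 37 genes were again lower than WT, the same 12 genes. Of the 13 genes lower in ΔIBB than in -/-, Ift172 lost its call over protein_coding transcripts, at -0.10 (adjusted P = 0.0617).

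Other parts of the pathway were read from lists, to be set against the 18.9% of all genes that were lower and the 36.6% called in either direction. Like the marker lists below, they were chosen with earlier results of these data known, so the counts are descriptions. Among 11 further subunits of these complexes, 4 were lower in Kpna6 ΔIBB/ΔIBB than in WT testes and 0 higher, with a median of -0.11. Of the kinesin-2 motor genes, which drive outward transport, 2 of 5 were lower (median -0.09). Of the GTPases and adaptors of ciliary traffic, 6 of 21 were lower and 2 higher (median -0.03). In the transition zone, the gate at the base of the cilium, 6 of 19 were lower and 0 higher (median -0.11). The axonemal dyneins, radial spokes and tektins, which are built into the moving tail, had 15 of 24 lower and 0 higher (median -0.21). With library size, calls in both directions appeared in each of these lists, at 1 lower and 2 higher in the further subunits, 1 and 1 in kinesin-2, 4 and 6 in the GTPases and adaptors, 4 and 3 in the transition zone and 8 and 2 in the axonemal list. With TPM, the counts were 1 lower and 1 higher, 1 and 0, 2 and 4, 2 and 2, and 6 and 1, in the same order. Over all genes the shares were 12.4% lower and 28.8% higher with library size, and 8.23% and 20.2% with TPM. In Kpna6-/- testes, 1 GTPase or adaptor gene was lower than in WT and the other 4 lists had 0 calls in either direction.

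**Figure D5:**
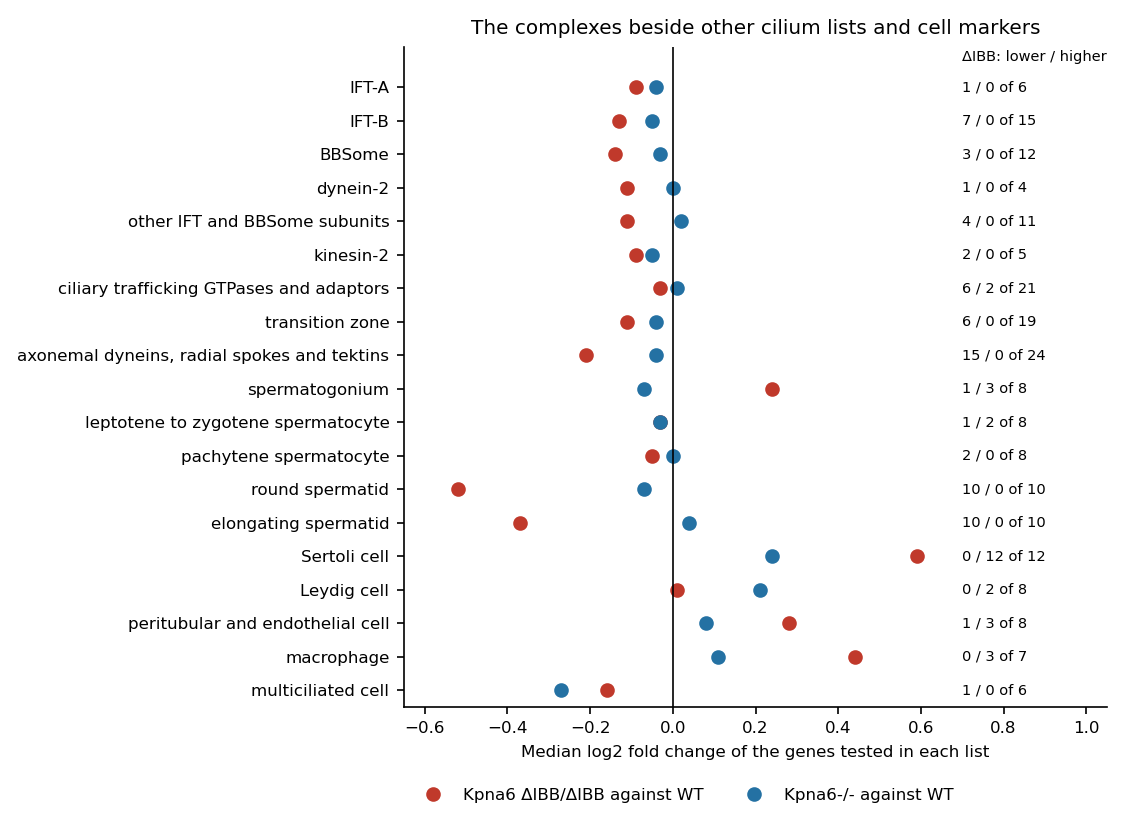
Points give the median log2 fold change against WT (x axis, TMM scaling) over the genes tested in each complex, pathway list and cell marker list for Kpna6 ΔIBB/ΔIBB and Kpna6-/- testes, and the figures at the right count the genes called lower and higher in ΔIBB. The complexes lie between -0.14 and -0.09 in ΔIBB, between the spermatid lists at -0.52 and -0.37 and the Sertoli list at 0.59.

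Markers of some cell types of the testis also differed between the groups. The 10 round spermatid markers were all lower in Kpna6 ΔIBB/ΔIBB than in WT testes (median -0.52), with summed levels of 1900 to 2110 TPM against 2250 to 2510 TPM in WT and 2210 to 2350 TPM in Kpna6-/-. All 10 were also called lower with library size, and 7 with limma on TPM. All 10 elongating spermatid markers were lower too (median -0.37), at 58700 to 67000 TPM against 70500 to 80700 and 79000 to 80400 TPM. All 12 Sertoli cell markers were higher (median 0.59), at 1520 to 1780 TPM against 902 to 1000 and 1100 to 1180 TPM, and 3 of these 12 were also higher in Kpna6-/- testes. Of 8 pachytene spermatocyte markers 2 were lower and 0 higher (median -0.05), at 8530 to 8710 TPM against 8110 to 8600 and 8250 to 8650 TPM. In bulk tissue, fewer cells of a type and less RNA per cell cannot be told apart. By microscopy, the study counted fewer Sertoli cells and fewer round spermatids per tubule in adults of both mutant lines. In round spermatids sorted from ΔIBB testes, it measured less mRNA of transition proteins and protamines by PCR. The part of these markers in the levels of the 37 genes was not tested.

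The remaining marker lists in Kpna6 ΔIBB/ΔIBB against WT had 3 of 8 higher and 1 lower for spermatogonia, 2 higher and 1 lower of 8 for leptotene to zygotene spermatocytes, 2 higher of 8 for Leydig cells, 3 higher and 1 lower of 8 for peritubular and endothelial cells and 3 higher of 7 for macrophages. Over all genes, 36.6% were called in either direction and 18.9% lower, and the counts for leptotene to zygotene spermatocytes and Leydig cells are near or below the former. Multiciliated cells, which line the efferent ducts and use the same transport genes, had 1 of 6 markers lower, with summed levels of 47.8 to 49.4 TPM in WT, 44.0 to 52.8 in Kpna6 ΔIBB/ΔIBB and 42.9 to 47.6 in Kpna6-/-. Epididymis markers summed to 5.95 to 7.81 TPM in WT and 7.43 to 19.1 in Kpna6-/-, but to 9.26 to 171 TPM in Kpna6 ΔIBB/ΔIBB. Of the 8 epididymis markers, 3 passed the filter on low counts and 2 of these were higher (median 3.73). The high sum was that of ΔIBB replicate 3, and 1 of the 8, Lcn5, was below 0.1 TPM in every library. Without ΔIBB replicate 3, 13 of the 37 genes were called against WT, 12 of them lower, and the 12 lower genes were the same. The share of all genes called without that library is not given here. With all libraries it was 36.6%, so the total of 13 does not set the 37 genes apart.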

How the data were processed

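RNA was measured by RNAseq in 9 whole testes, 3 per genotype. The authors quantified the reads with kallisto, and the deposited values are estimated counts and TPM for each of 96626 transcripts. TPM is scaled by the authors for transcript length and library total. The estimated counts were summed per gene through the transcript IDs of GENCODE M21 (GRCm38), which placed 95301 transcripts in 32035 genes, and the other 1325 transcripts were not used. The release behind the deposited transcript IDs is not given in the sources used here. 93.3% of the transcripts had the same length in both.

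Summed counts were rounded and tested with edgeR 4.0.16 (filterByExpr, TMM, quasi-likelihood test, R 4.3.3) on the 6 samples of each pair of groups, with Benjamini-Hochberg adjustment over all genes tested and a threshold of 0.05. DESeq2 1.42.0, limma 3.58.1 on log2(TPM + 1) for genes of at least 0.5 TPM, other scalings and leaving out each library were alternatives. Shared sequence was found with blastn 2.17.0+ over at least 100 bases. The test was checked on simulated data with log2 changes of 0.5 and 1 in either direction. Most changes reported here are smaller, and changes of that size were not simulated. Replicates are samples that the labels number within a genotype, so P-values measure the spread between these samples.

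Libraries held 24859751 to 31484692 counts on genes. No 2 libraries of a group agreed within sampling noise. On the first principal component (34.3% of the variance), the ΔIBB libraries stood apart from the other 6. The members and lists were chosen with earlier results of these data known, so their counts are descriptions. Values in every sample are given for up to 6 called genes per complex with the smallest adjusted P, for the 3 highest and the 3 lowest in WT and for Kpna6. Ttc26 was added after its values were seen. Other genes outside the 37 were named for shared sequence or likeness to a member, and Lcn5 as an epididymis marker. Promoter matches used the RefSeq windows of GRCm38.p6, which hold no entry for Ift80, Dync2li1, Ift122, Ttc30b and Ift81.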

Additional observations from a re-analysis of the deposited data

How the results depend on the processing

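For Kpna6 ΔIBB/ΔIBB against WT, 12 of the 37 genes were called. The count moved to 7 with limma on log2(TPM + 1) and to 7 with a pseudocount of 0.1, ran from 11 to 15 when 1 library was left out, and from 11 to 15 under the other alternatives. These totals pool both directions, in which 36.6% of all genes were called in the main test. The shares of all genes when a library was left out are not given here. The 11 with library size were 6 lower genes, all among the 12, and 5 higher genes outside them. The 7 with limma on log2(TPM + 1) were 5 lower genes, all among the 12, and 2 higher genes outside them. Over the 12 genes called and all alternatives, 182 of 204 values kept their direction and their call, 22 kept the direction only and 0 turned. Many of the alternatives differ little from the main test, so these values are not independent. Apart from those of Bbs7 when a library was left out, all of the 22 lost calls came with library size or TPM. For Kpna6 ΔIBB/ΔIBB against Kpna6-/-, 13 genes were called, 8 with library size, 6 with limma on log2(TPM + 1), 6 with a pseudocount of 0.1, and 10 to 14 when 1 library was left out. The calls with library size and with limma on log2(TPM + 1) went in both directions. In the main test of this comparison, 30.3% of all genes were called in either direction. Of 221 values for the 13 genes, 181 kept the call, 34 the direction only and 6 turned, all with TPM. With both pseudocounts Bbs7 turned to 0.01 and Dync2h1 to 0.02, and Ift80 turned to 0.06 with a pseudocount of 1 and 0.07 with 0.1. For Kpna6-/- against WT, the count was 0 under each alternative. Summing genes that share at least 98% of a sequence, chosen after seeing the data, left 12, 0 and 13 calls.

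Same-numbered libraries of different groups did not deviate together (correlations of deviations from -0.055 to 0.08 over 9 pairs), so the numbers were not taken as pairs. With the replicate number as a block, 12 genes were called against WT in Kpna6 ΔIBB/ΔIBB, 0 in Kpna6-/-, and 14 in the direct comparison. Kpna6 log2 fold changes with the block were -1.76 (Kpna6 ΔIBB/ΔIBB against WT), -0.15 (Kpna6-/- against WT) and -1.61 (between the mutants). When 1 library was left out, Kpna6 in Kpna6-/- against WT ran from -0.38 to -0.06, with the largest value without WT replicate 1. The number of genes led by a transcript without a protein_coding label moved from 4 by TPM to 0 by counts, and the number with an X-box from 2 to 6 with 1 mismatch allowed. Against WT, the SE of the log2 fold change in Kpna6 ΔIBB/ΔIBB ran from 0.04 to 0.12 and was largest in the low genes Bbs12 and Ttc30b, so smaller differences could be seen in the higher genes. The cause of the differences between scalings was not tested.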
